A study of Homo sapiens with 8 samples.

Results

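Cells of the established human line MDA-MB-231, a triple-negative breast cancer line of the basal B type, were given siE2 or siE3, both of them small interfering RNAs (siRNAs) against the mRNA of ESRRA. The comparison sets the 2 siE2 libraries against the 2 siE3 libraries, so it rests on 4 of the 8 RNA-seq libraries of the study. The other 4 libraries came from cells given a further siRNA against ESRRA (siE1, 2 libraries) or a control siRNA (siC, 2 libraries). They are not in the contrast, and their levels are given beside it. All 8 libraries came from cells grown in DMEM with foetal calf serum and transfected with the reagent INTERFERin, and the labels name no other treatment. A single line was used, and the labels are silent on whether each library of an siRNA had a culture of its own. The p-values therefore rest on library-to-library spread that may be technical in origin.

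ESRRA encodes ERRα (estrogen-related receptor α), an orphan nuclear receptor that works with the coactivators PGC-1α and PGC-1β and is known for driving genes of mitochondrial respiration, the TCA cycle and fatty acid oxidation. An siRNA is loaded into an Argonaute protein, which cuts mRNAs that pair with the guide strand along its length. The same complex can also lower mRNAs that pair with only a short stretch near the 5′ end of the guide, called the seed, most often in the 3′ UTR. Sets of siRNAs against one mRNA therefore share a target and differ in guide sequence. The comparison of siE2 with siE3 asks what differs between cells in which the target mRNA stands at about the same level. The libraries count RNA, so the level of ERRα protein is not known here.

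ESRRA had 205 and 168 read counts in the siE2 libraries, against 187 and 192 in the siE3 libraries. The siE1 libraries held 228 and 271 counts and the siC libraries 1379 and 1512. On the scale used for levels below, CPM (counts relative to library size, scaled by the TMM method), ESRRA averaged 8.06 ± 1.14 with siE2 and 8.43 ± 0.171 with siE3 (SD, n = 2 each). The siE2 libraries lay on both sides of the siE3 libraries, so these groups overlapped, and all 4 lay far below both siC libraries. The log2 fold change of siE2 over siE3 was -0.06 (SE 0.113, edgeR quasi-likelihood test, adjusted p = 0.67), and it was -0.22 (edgeR adjusted p = 0.20) without siE2 replicate 1 and 0.07 (edgeR adjusted p = 0.68) without siE2 replicate 2. Counts of the related receptors ESRRB and ESRRG never exceeded 2 in a library, too few for a test.

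Library totals were 22688294 and 22669757 counts for siE2, and 21835995 and 23586024 for siE3. The siE1 libraries held 22305207 and 25880548, and the siC libraries 22047738 and 23624089. Counts of 2 libraries were compared by a chi-square over genes with a mean of at least 20 counts. The chi-square per degree of freedom was 3.10 between the siE2 libraries and 5.16 between the siE3 libraries, against 47.0 to 57.0 for the 4 pairs of a siE2 with a siE3 library. No library repeated another within sampling noise. The line's own markers were present: all 10 basal B markers were counted in every library, and they summed to 9987 and 10092 CPM with siE2 and to 9216 and 9172 CPM with siE3. Markers of cells the culture should not hold were low. The 11 blood cell markers summed to 3.17 and 3.18 CPM with siE2, against 2.24 and 2.67 with siE3, with 6 at 0 in all libraries, among them HBA1. The 8 endothelial markers summed to 3.79 and 2.82 CPM with siE2, against 2.93 and 2.76 with siE3, with EMCN at 0. The 9 fibroblast markers summed to 13.8 and 12.2 CPM with siE2, against 10.4 and 8.61 with siE3, with DCN, LUM and PDPN at 0 in all libraries. Nearly all of the fibroblast sum came from COL1A1 (9.94 and 8.67 CPM with siE2, against 7.5 and 6.66 CPM with siE3) and PDGFRB (3.2 and 3.02 CPM with siE2, against 2.83 and 1.99 CPM with siE3).

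The 2 siRNAs left different transcriptomes. Of 13395 genes tested, 6491 (48.5%) differed at an edgeR adjusted p below 0.05. With siE2, 3140 (23.4%) were higher and 3351 (25%) lower than with siE3. Scaled by library size alone, 3652 were higher and 2851 lower, so the side with more calls turned. In 6487 of all genes (48.4%) the difference was called and both siE2 libraries lay on one side of both siE3 libraries. Nearly every called gene met this, so groups that do not overlap single out no called gene below. Most differences were small. At least 2-fold differences that were also called numbered 526 (3.93%), of which 383 (2.86%) were higher with siE2 and 143 (1.07%) lower. The median log2 fold change of all genes tested was 0.00364 with TMM scaling, which itself brings the centre close to 0. It was 0.0469 with scaling by library size alone. Changes below are read against the TMM centre.

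The other 4 libraries give a position to both groups. Over all genes tested, called or not, both siE2 libraries lay above all 6 other libraries in 18.6% and below them in 19.2%, and both siE3 libraries lay above all 6 others in 9.58% and below them in 10.4%. Genes called for a difference between siE2 and siE3 lie apart more often by that choice. Among the 3140 genes called higher, both siE2 libraries lay above all 6 other libraries in 1891 genes (60.2%), and both siE3 libraries lay below all 6 others in 1030 genes (32.8%). Among the 3351 called lower, siE2 lay below all 6 others in 2078 genes (62.0%), and siE3 above all 6 others in 915 (27.3%). A gene can meet both conditions. The siC mean fell between the siE2 and siE3 means in 1372 of the genes called higher (43.7%) and in 1399 of those called lower (41.7%), against 3949 of all genes tested (29.5%). These counts describe where the levels lay and were not tested.

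**Figure D1:**
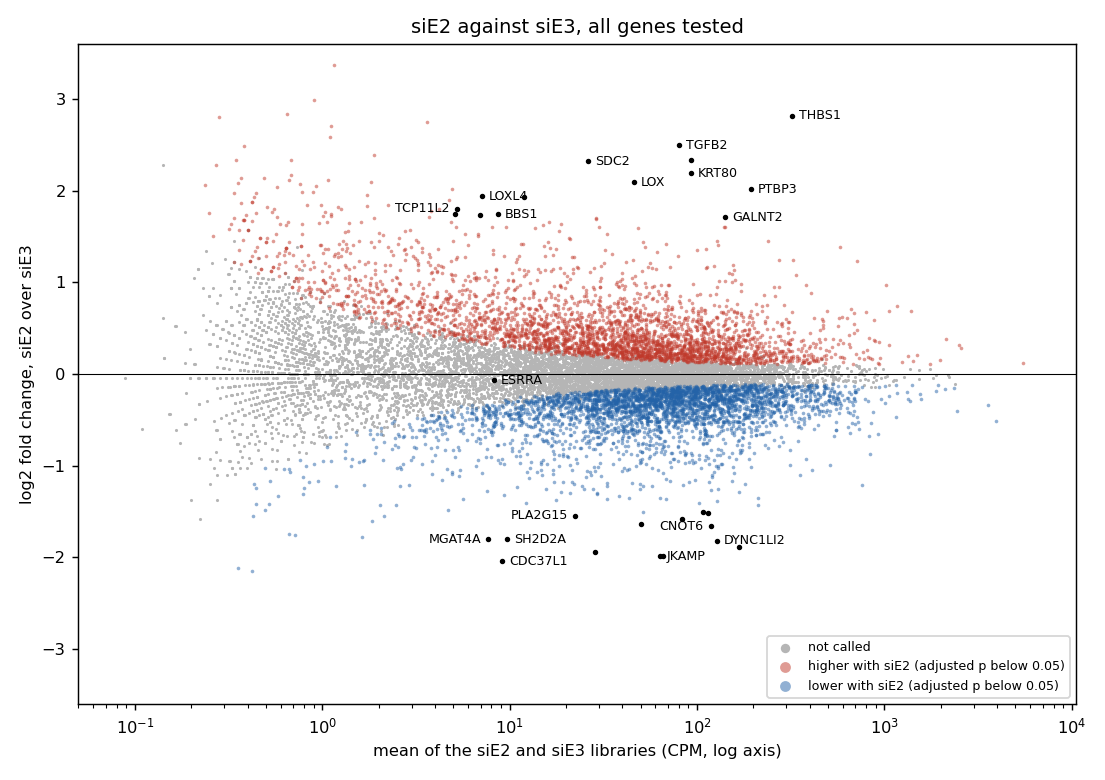
Log2 fold change of siE2 over siE3 (vertical) against the mean level of the 4 libraries in CPM (horizontal, log axis) for the genes tested; 1 gene that was not called lies below the axis. Colours mark genes called higher or lower with siE2, black dots are ESRRA and the 28 genes named by rule, some without a label where names would overlap. ESRRA sits at -0.06 in the uncalled band, with THBS1 at the top right and CDC37L1 and JKAMP at the bottom.

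The genes highest with siE2 over siE3 included several that act outside the cell. They were taken by a rule: the 14 highest log2 fold changes among genes that were called, had a mean of at least 5 CPM and had groups that did not overlap, a pool of 2621 genes. THBS1, which encodes the secreted matrix glycoprotein thrombospondin-1, had 591 and 532 CPM with siE2, against 69.6 and 89.5 CPM with siE3. Its level was 246 and 249 CPM with siE1 and 285 and 266 CPM with siC. The siE2 libraries were thus the highest and the siE3 libraries the lowest of the 8, with a wide gap between them (log2 fold change 2.82, SE 0.0853, edgeR adjusted p = 4.9e-12). TGFB2, a ligand of the TGF-β family, had 142 and 131 CPM with siE2, against 22.2 and 26.05 CPM with siE3. Here too siE2 stood above and siE3 below all other libraries, which had 56.7 and 56.9 CPM with siE1 and 37.02 and 35.1 CPM with siC (log2 fold change 2.5, SE 0.0733, edgeR adjusted p = 4.9e-12). ADM encodes the vasodilator peptide adrenomedullin and is a known hypoxia-responsive gene. It had 157 and 153 CPM with siE2, against 27.6 and 33.7 CPM with siE3. The siC libraries, at 123 and 129 CPM, were close to siE2, while siE3 was lowest of all (log2 fold change 2.34, SE 0.0741, edgeR adjusted p = 6.5e-12).

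SDC2, the cell-surface heparan sulphate proteoglycan syndecan-2, had 43.7 and 43.6 CPM with siE2, against 8.46 and 8.96 CPM with siE3. The other libraries lay between, with 30.9 and 32.8 CPM with siE1 and 26.1 and 24.2 CPM with siC (log2 fold change 2.32, SE 0.0827, edgeR adjusted p = 1.9e-11). KRT80, a type II keratin, had 161 and 141 CPM with siE2, against 31.6 and 34.8 CPM with siE3, again with siE1 and siC in between (log2 fold change 2.19, SE 0.0907, edgeR adjusted p = 9.0e-11). LOX is the secreted lysyl oxidase that cross-links collagen and elastin. It had 79.1 and 69.3 CPM with siE2, against 17.3 and 17.5 CPM with siE3, and 21.7 and 22.2 CPM with siE1 and 21.5 and 19.5 CPM with siC. The siE2 libraries alone were high for LOX, and the other 6 lay close together (log2 fold change 2.09, SE 0.0798, edgeR adjusted p = 3.8e-11). PTBP3, an RNA-binding protein of the polypyrimidine tract family, had 314 and 305 CPM with siE2, against 70.9 and 82.2 CPM with siE3 (log2 fold change 2.02, SE 0.0605, edgeR adjusted p = 4.9e-12), with siE1 and siC in between. The relative of LOX, LOXL4, had 12.9 and 9.62 CPM with siE2, against 2.97 and 2.9 CPM with siE3 (log2 fold change 1.94, SE 0.173, edgeR adjusted p = 3.0e-07), and siE1 and siC were near siE3.

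The other 6 ranged in log2 fold change between 1.71 and 1.93. GALNT2 and GALNT5 encode enzymes that start mucin-type O-glycosylation. GALNT2 had 216 and 214 CPM with siE2, against 67.2 and 63.99 CPM with siE3 (log2 fold change 1.71, SE 0.0506, edgeR adjusted p = 4.9e-12), and GALNT5 had 19.98 and 17.8 CPM with siE2, against 4.98 and 4.93 CPM with siE3 (log2 fold change 1.93, SE 0.136, edgeR adjusted p = 2.3e-08). The siC libraries of GALNT2, at 161 and 156 CPM, lay nearer to siE2, while those of GALNT5, at 5.29 and 4.46 CPM, lay with siE3. BMF, a BH3-only protein that promotes apoptosis, had 12.8 and 8.54 CPM with siE2, against 3.25 and 3.16 CPM with siE3, above 1.004 and 1.2 CPM with siC (log2 fold change 1.74, SE 0.194, edgeR adjusted p = 2.9e-06). BBS1 of the ciliary BBSome stood at 1.74, TCP11L2 at 1.8 and TMEM150A at 1.74. In all 14 genes both siE2 libraries lay above the other 6, as they did in 18.6% of all genes tested, and in 9 of them both siE3 libraries also lay below the other 6, as in 10.4% of all genes. Since the 14 were chosen by this difference, nothing is read from these counts.

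**Figure D2:**
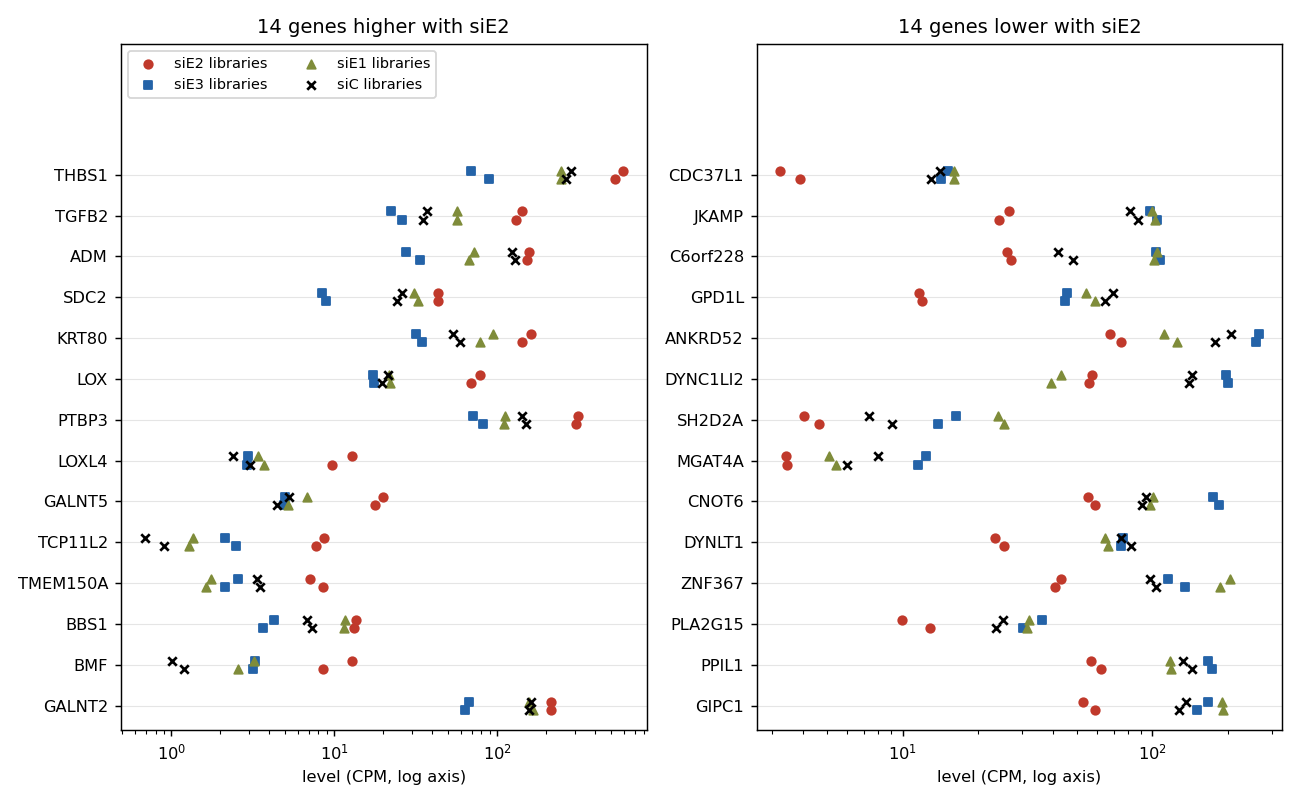
Level of the 28 genes in each library in CPM (log axes), 1 symbol per library and 2 per siRNA; genes higher with siE2 are on the left and genes lower with siE2 on the right, by size of fold change from the top. For THBS1 the siE2 libraries stand at 591 and 532 CPM and the siE3 libraries at 69.6 and 89.5 CPM, and for JKAMP the siE2 libraries stand apart on the low side while the other 6 lie together.

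On the lower side the rule took 14 genes from a pool of 3210, and in 13 of them the siE2 libraries were the lowest of the 8, as they were in 19.2% of all genes tested. The choice of the genes again favours such positions. CDC37L1, a relative of the HSP90 co-chaperone CDC37, had 3.24 and 3.88 CPM with siE2, against 15.1 and 14.3 CPM with siE3. The other libraries, with 16.04 and 16.1 CPM with siE1 and 14.1 and 12.9 CPM with siC, lay beside siE3 (log2 fold change -2.04, SE 0.124, edgeR adjusted p = 4.9e-09). JKAMP, a membrane protein that binds the kinase JNK1, had 26.8 and 24.2 CPM with siE2, against 97.6 and 105 CPM with siE3, and 99.7 and 103 CPM with siE1 and 81.01 and 87.9 CPM with siC. Only the siE2 libraries were low (log2 fold change -1.99, SE 0.0679, edgeR adjusted p = 1.2e-11). GPD1L, a relative of the cytosolic glycerol-3-phosphate dehydrogenase, had 11.6 and 12 CPM with siE2, against 45.6 and 44.7 CPM with siE3, and 54.3 and 58.98 CPM with siE1 and 69.6 and 64.4 CPM with siC. Again the siE2 libraries stood alone at the bottom (log2 fold change -1.94, SE 0.0786, edgeR adjusted p = 7.6e-11).

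Some genes of the cytoplasmic dynein motor were among these 14. DYNLT1, a dynein light chain, had 23.3 and 25.4 CPM with siE2, against 76.5 and 74.6 CPM with siE3 (log2 fold change -1.63, SE 0.0669, edgeR adjusted p = 7.9e-11). The other libraries, with 64.7 and 66.5 CPM with siE1 and 75.1 and 81.9 CPM with siC, were high as well. DYNC1LI2, a dynein light intermediate chain, had 57.1 and 55.8 CPM with siE2, against 197 and 201 CPM with siE3 (log2 fold change -1.82, SE 0.0529, edgeR adjusted p = 4.9e-12). It was the exception among the 14, since the siE1 libraries were lower still, at 43.01 and 39.1 CPM, while siC had 144 and 140.4 CPM. Its siE3 libraries were the highest of the 8.

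For 5 of the 14 the siE3 libraries were also above all 6 others. ANKRD52, an ankyrin-repeat subunit of protein phosphatase 6, had 67.4 and 74.9 CPM with siE2, against 266 and 259 CPM with siE3, with 111 and 125 CPM with siE1 and 206 and 177 CPM with siC in between (log2 fold change -1.88, SE 0.0741, edgeR adjusted p = 5.5e-11). CNOT6, a deadenylase of the CCR4-NOT complex that shortens mRNA tails, had 55.2 and 59.03 CPM with siE2, against 175 and 185 CPM with siE3 (log2 fold change -1.66, SE 0.0533, edgeR adjusted p = 6.7e-12), and both other groups lay between. PPIL1, a prolyl isomerase of the spliceosome, had 56.6 and 62.4 CPM with siE2, against 167 and 173 CPM with siE3 (log2 fold change -1.51, SE 0.0575, edgeR adjusted p = 3.8e-11). DYNC1LI2 and MGAT4A, an N-glycan branching enzyme with a log2 fold change of -1.8, were the other 2. C6orf228 had 26.1 and 27.1 CPM with siE2, against 103 and 107 CPM with siE3 (log2 fold change -1.98, SE 0.0676, edgeR adjusted p = 1.2e-11), and siE1 was like siE3 there, at 104 and 101 CPM, while siC had 41.9 and 48.1 CPM. The remaining 4 were the adaptor SH2D2A (-1.8), the zinc-finger gene ZNF367 (-1.58), the lysosomal phospholipase PLA2G15 (-1.54) and the PDZ adaptor GIPC1 (-1.5).

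Gene lists are described by the number of tested members called in each direction and by their median log2 fold change, siE2 over siE3, beside 23.4% higher and 25% lower over all genes tested. Some genes stand in more than one list. Genes of cell division were lower with siE2. Of 44 mitosis genes 37 were lower and 1 higher, with a median of -0.41. BUB1, a kinase of the spindle checkpoint, had 168 and 181 CPM with siE2, against 298 and 313 CPM with siE3. Its siE2 libraries lay below all others, which had 286 and 278 CPM with siE1 and 303 and 310.1 CPM with siC (log2 fold change -0.81, SE 0.047, edgeR adjusted p = 3.1e-09). ECT2, the exchange factor that activates RHOA in cytokinesis, had 261 and 263 CPM with siE2, against 418 and 448 CPM with siE3 (log2 fold change -0.73, SE 0.0508, edgeR adjusted p = 2.2e-08). ESPL1, the separase that cuts cohesin, stood at -0.87 and the ring scaffold ANLN at -0.64, both with groups that did not overlap. The one higher gene was the kinesin KIF20A, with 186 and 184 CPM with siE2, against 139 and 153 CPM with siE3 (log2 fold change 0.34, SE 0.0497, edgeR adjusted p = 4.3e-05).

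Of 46 DNA replication genes 36 were lower with siE2 and 4 higher, with a median of -0.32. GINS1, a subunit of the replicative helicase complex, had 33.9 and 32.9 CPM with siE2, against 60.7 and 62.6 CPM with siE3 (log2 fold change -0.88, SE 0.0631, edgeR adjusted p = 2.6e-08). FEN1, the nuclease that trims Okazaki fragments, had 134 and 138 CPM with siE2, against 202 and 209.5 CPM with siE3, and RRM1, the large subunit of ribonucleotide reductase, had 271 and 281 CPM with siE2, against 388 and 435 CPM with siE3. In each of these 3 genes the siE2 libraries were the lowest of the 8. The higher members were RPA1 (0.45), which coats single-stranded DNA, RFC1 (0.21), POLD2 (0.16) and RFC4 (0.17). Among 29 genes of G1 to S control, 15 were lower and 6 higher (median -0.24). CDC25A, a phosphatase that activates cyclin-dependent kinases, had 37.1 and 34.2 CPM with siE2, against 86.1 and 95.3 CPM with siE3 (log2 fold change -1.35, SE 0.0754, edgeR adjusted p = 2.0e-09). SKP2, which marks the CDK inhibitor p27 for breakdown, had 78.7 and 89.6 CPM with siE2, against 171 and 166 CPM with siE3 (log2 fold change -1.0, SE 0.0619, edgeR adjusted p = 5.7e-09). CDKN1B, which encodes p27, was on the other side, with 94.3 and 84.1 CPM with siE2, against 66.2 and 66.2 CPM with siE3 (log2 fold change 0.43, SE 0.0604, edgeR adjusted p = 2.9e-05), and so was the inhibitor CDKN1C, with 15.6 and 15.6 CPM with siE2, against 10.2 and 9.86 CPM with siE3 (log2 fold change 0.63, SE 0.11, edgeR adjusted p = 2.1e-04).

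Of 31 kinesin motor genes 17 were lower and 4 higher (median -0.26). KIF1C stood at -0.61 and KIF2A at -0.59. KIF3B, a motor subunit of ciliary and cargo transport, went the other way by a wide margin. It had 214 and 204 CPM with siE2, against 66.7 and 70.5 CPM with siE3, and the remaining libraries split, with 66.01 and 64.5 CPM for siE1 and 235 and 227 CPM for siC. The siE2 libraries thus lay with siC and the siE3 libraries with siE1 (log2 fold change 1.6, SE 0.0502, edgeR adjusted p = 5.8e-12). Of 14 replication-dependent histone genes, 8 passed the filter on low counts, 4 were called higher and 0 lower (median 0.37 over the 8). HIST1H2BK had 56.8 and 49.2 CPM with siE2, against 33.6 and 35.8 CPM with siE3 (log2 fold change 0.61, SE 0.0862, edgeR adjusted p = 3.1e-05). Histone genes have near-identical copies, whose reads may have been split or dropped, so these values are uncertain, and the 6 untested members had at most 13 counts in any library.

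Genes that make ribosomes and drive translation were lower with siE2 by small amounts. Of 79 cytosolic ribosomal protein genes, 77 were tested, 67 were lower and 0 higher, with a median of -0.30. RPL27A had 116 and 125 CPM with siE2, against 210.0 and 226 CPM with siE3 (log2 fold change -0.86, SE 0.0617, edgeR adjusted p = 2.9e-08), and RPS14 had 273 and 291 CPM with siE2, against 410.1 and 399.7 CPM with siE3 (log2 fold change -0.52, SE 0.0436, edgeR adjusted p = 1.5e-07). The siE1 and siC libraries lay with siE3 or near it in both genes, and RPL27A had 209 and 184 CPM with siE1 and 203 and 215 CPM with siC. RPS12 (-0.52) and RPL24 (-0.53) were next by p. Many ribosomal protein genes have processed pseudogenes, and the treatment of reads shared with them is not known here. RPL21, listed with at most 2 counts in any library, was among those not tested.

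Of 29 genes of nucleolar ribosome biogenesis, 16 were lower and 3 higher (median -0.21). UTP20, a component of the small-subunit processome, had 75.1 and 76.7 CPM with siE2, against 129 and 163 CPM with siE3 (log2 fold change -0.94, SE 0.083, edgeR adjusted p = 2.6e-07), and DKC1, the pseudouridine synthase dyskerin, stood at -0.61. PNO1, a small-subunit assembly factor, was higher, with 98.5 and 96.4 CPM with siE2, against 66.4 and 67.5 CPM with siE3 (log2 fold change 0.54, SE 0.053, edgeR adjusted p = 7.7e-07), but its siE1 and siC libraries were higher still. Among 28 tested translation factors 20 were lower and 2 higher (median -0.22). EIF3M had 192 and 184 CPM with siE2, against 251 and 264 CPM with siE3 (log2 fold change -0.45, SE 0.0445, edgeR adjusted p = 7.8e-07), while the elongation factor EEF2 stood at 0.2. All 4 siE2 and siE3 values of EIF3M were apart by group.

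Mitochondrial energy genes, for which ERRα is best known, also differed. Of 38 nuclear genes of respiratory complex I, 17 were lower with siE2 and 0 higher (median -0.15). Of 41 genes of complexes II to V, 25 were lower and 1 higher (median -0.17). ATP5B, the catalytic β subunit of ATP synthase, had 631 and 639 CPM with siE2, against 1001 and 1029.7 CPM with siE3, and 987 and 951 CPM with siE1 and 1250.0 and 1301 CPM with siC. The siE2 libraries were the lowest, siC the highest, and siE3 and siE1 lay close together between them (log2 fold change -0.68, SE 0.04, edgeR adjusted p = 3.7e-09). ATP5L, another ATP synthase subunit, had 64.4 and 74.4 CPM with siE2, against 141 and 141 CPM with siE3 (log2 fold change -1.02, SE 0.0645, edgeR adjusted p = 7.4e-09). NDUFA4 stood at -0.49 and COX5A, of cytochrome c oxidase, at -0.54. The one higher gene was SDHC of succinate dehydrogenase, with 51.7 and 49.2 CPM with siE2, against 40.05 and 40.9 CPM with siE3 (log2 fold change 0.32, SE 0.0605, edgeR adjusted p = 4.8e-04).

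In the TCA cycle and pyruvate entry 11 of 27 were lower and 4 higher (median -0.08). OGDH, the first subunit of the 2-oxoglutarate dehydrogenase complex, had 145 and 139 CPM with siE2, against 256 and 261 CPM with siE3 (log2 fold change -0.86, SE 0.0474, edgeR adjusted p = 1.6e-09), and MDH1, the cytosolic malate dehydrogenase, stood at -0.48. Pyruvate carboxylase, PC, was higher at 0.28. The mitochondrial ribosome had 33 of 76 genes lower and 6 higher (median -0.13), with MRPL48 at -0.64 and MRPL19 at 0.39. In fatty acid oxidation 7 of 25 were higher and 4 lower (median 0.06), close to the shares over all genes. ACSL3, which activates long-chain fatty acids, had 260.0 and 251 CPM with siE2, against 152 and 173 CPM with siE3 (log2 fold change 0.66, SE 0.054, edgeR adjusted p = 1.2e-07), and the groups did not overlap.

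Of 18 tested genes known elsewhere as ERRα targets, ESRRA among them, 8 were lower and 3 higher (median -0.15), but 4 were lower and 5 higher with scaling by library size alone. Besides ATP5B, they included the mitofusin MFN2, with 115 and 114 CPM with siE2, against 159 and 172 CPM with siE3 (log2 fold change -0.53, SE 0.0512, edgeR adjusted p = 7.2e-07), and SOD2 of mitochondrial antioxidant defence, with 79.3 and 76.1 CPM with siE2, against 124 and 130.1 CPM with siE3 (log2 fold change -0.71, SE 0.0509, edgeR adjusted p = 2.9e-08). The pyruvate dehydrogenase kinase PDK4 was higher, at low levels of 1.99 and 2.03 CPM with siE2, against 1.14 and 0.822 CPM with siE3 (log2 fold change 1.03, SE 0.278, edgeR adjusted p = 0.0062), and CPT1A, the entry enzyme of fatty acid oxidation, stood at 0.36. Of the ERR family with its coregulators 12 were tested, and 3 were lower and 1 higher (median -0.06). PPARGC1B, which encodes the ERR coactivator PGC-1β, had 11.6 and 8.24 CPM with siE2, against 19.6 and 19.6 CPM with siE3 (log2 fold change -0.98, SE 0.124, edgeR adjusted p = 1.0e-05). PPRC1, a relative of the PGC-1 coactivators, had 77.4 and 75.3 CPM with siE2, against 102 and 114 CPM with siE3 (log2 fold change -0.5, SE 0.0616, edgeR adjusted p = 7.8e-06). The siE2 libraries were the lowest of the 8 for both coactivators. The coactivator NCOA1 stood at 0.19.

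Most other metabolic lists held called genes in both directions. Glycolysis had 10 of 26 lower and 5 higher (median -0.09), with GPD2, the mitochondrial glycerol-3-phosphate dehydrogenase, at -0.98, TPI1 at -0.57 and the glucose transporter SLC2A3 at 0.52. In serine and folate one-carbon metabolism 7 of 12 tested genes were lower and 0 higher (median -0.26), led by MTHFD1 (-0.49) and SHMT1 (-0.48). Fatty acid synthesis had 8 of 17 lower and 4 higher (median -0.13). ELOVL5, an elongase of polyunsaturated fatty acids, had 256 and 270.2 CPM with siE2, against 493 and 507 CPM with siE3 (log2 fold change -0.93, SE 0.0442, edgeR adjusted p = 3.7e-10), and its siC libraries, at 263 and 276 CPM, lay with siE2. Cholesterol synthesis had 8 of 26 lower and 7 higher (median -0.06), and 6 lower and 8 higher with scaling by library size alone. Lysosome and autophagy genes had 10 of 31 lower and 9 higher, with a median of 0.0085 whose sign turned under 1 of 20 settings. The sialidase NEU1 (0.94) and the protease CTSD (0.61) were higher, and LAMP1 (-0.43) was lower.

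Genes of the extracellular matrix and of cell attachment were higher with siE2. Of 37 tested matrix genes 21 were higher and 4 lower, with a median of 0.28, and 7 differed by at least 2-fold. After THBS1 and LOX, COL5A1, a fibrillar collagen chain, had 75.6 and 74.6 CPM with siE2, against 27.02 and 28.3 CPM with siE3 (log2 fold change 1.44, SE 0.0651, edgeR adjusted p = 2.2e-10). The siE1 libraries, at 64.5 and 68.1 CPM, were near siE2 and the siC libraries, at 22.8 and 20.8 CPM, near siE3. COL4A1, a basement membrane collagen chain, had 184 and 190.0 CPM with siE2, against 74.4 and 63.04 CPM with siE3 (log2 fold change 1.45, SE 0.078, edgeR adjusted p = 1.4e-09), and siE3 was lowest of all there. The lower members included the glycoprotein TNC (-0.75), SPARC (-0.61) and the laminin chain LAMB3 (-0.33).

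Of 28 tested integrin and focal adhesion genes 17 were higher and 4 lower (median 0.29). ACTN4, which cross-links actin at adhesions, had 1335 and 1366 CPM with siE2, against 695 and 679 CPM with siE3 (log2 fold change 0.97, SE 0.0452, edgeR adjusted p = 2.7e-10), and CAV1, the caveolar coat protein, stood at 0.74. ITGA3 (0.67) was higher, and ITGA6 (-0.49) and ITGA2 (-0.4) were lower. Of 28 tested matrix proteases and inhibitors 14 were higher and 7 lower (median 0.35). TIMP2, an inhibitor of matrix metalloproteinases, had 462 and 454 CPM with siE2, against 191 and 196 CPM with siE3 (log2 fold change 1.25, SE 0.0421, edgeR adjusted p = 1.2e-11). The tissue plasminogen activator PLAT (1.01) was higher and the urokinase PLAU (-0.54) lower. Both groups of libraries were apart in each of these genes.

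The TGF-β pathway held genes in both directions. Of 35 tested members 15 were higher and 11 lower, and the median of 0.031 turned sign under 4 of 20 settings. The ligand TGFB2, the response gene TGFBI (0.69) and the activin antagonist FST (1.42) were higher. Both TGF-β receptors were lower: TGFBR1 had 61.7 and 54.4 CPM with siE2, against 103 and 106 CPM with siE3 (log2 fold change -0.85, SE 0.066, edgeR adjusted p = 6.3e-08), and TGFBR2 had 602 and 586 CPM with siE2, against 861 and 840.2 CPM with siE3 (log2 fold change -0.52, SE 0.0387, edgeR adjusted p = 4.3e-08). For TGFBR1 all 4 libraries lay above siC, at 27.3 and 30.9 CPM. Of 27 tested genes known as targets of the growth regulators YAP and TAZ, THBS1 and TGFB2 among them, 16 were higher and 8 lower (median 0.25). IGFBP3, which binds insulin-like growth factors, had 353 and 351 CPM with siE2, against 127 and 131 CPM with siE3 (log2 fold change 1.45, SE 0.0445, edgeR adjusted p = 5.0e-12), and F3, tissue factor, stood at 0.86. The lower members included LATS2 (-0.7), a kinase that restrains YAP, and WWTR1 (-0.33), which encodes TAZ.

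Markers of both mesenchymal and epithelial state were found on the higher side. Of 10 tested mesenchymal markers 5 were higher and 2 lower (median 0.37). SNAI2, the transcription factor SLUG, had 47.1 and 46.04 CPM with siE2, against 17.1 and 19.3 CPM with siE3, and 17.6 and 15.4 CPM with siE1 and 8.63 and 11.4 CPM with siC (log2 fold change 1.35, SE 0.101, edgeR adjusted p = 4.2e-08). The siE2 libraries were the highest of the 8, and siC the lowest. ZEB2 (0.81) was higher and vimentin, VIM (-0.33), lower. Of 17 tested epithelial markers 7 were higher and 1 lower (median 0.15), with the keratin KRT7 at 24.8 and 21.96 CPM with siE2, against 10.2 and 10.9 CPM with siE3 (log2 fold change 1.14, SE 0.101, edgeR adjusted p = 2.7e-07). KRT8 stood at 0.42 and CLDN4 at -0.43. CDH1, which encodes E-cadherin, had at most 3 counts in any library and was not tested. Of 10 basal B markers 6 were higher and 4 lower (median 0.16), and of 5 tested luminal markers 2 were higher and 1 lower, while ESR1 and PGR had 0 or 1 count in each library. Among markers of other cells 1 gene was called, COL1A1 at 0.4, and the fibroblast marker sum was higher in both siE2 libraries. DCN, LUM and PDPN were at 0 in every library. FAP had 2 and 1 counts with siE2 and 0 and 0 with siE3, and THY1 had 1 and 3 against 0 and 0. PDGFRA had 5 and 1 counts with siE2 and 1 and 3 with siE3. The part of such cells in the matrix values was not tested.

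**Figure D3:**
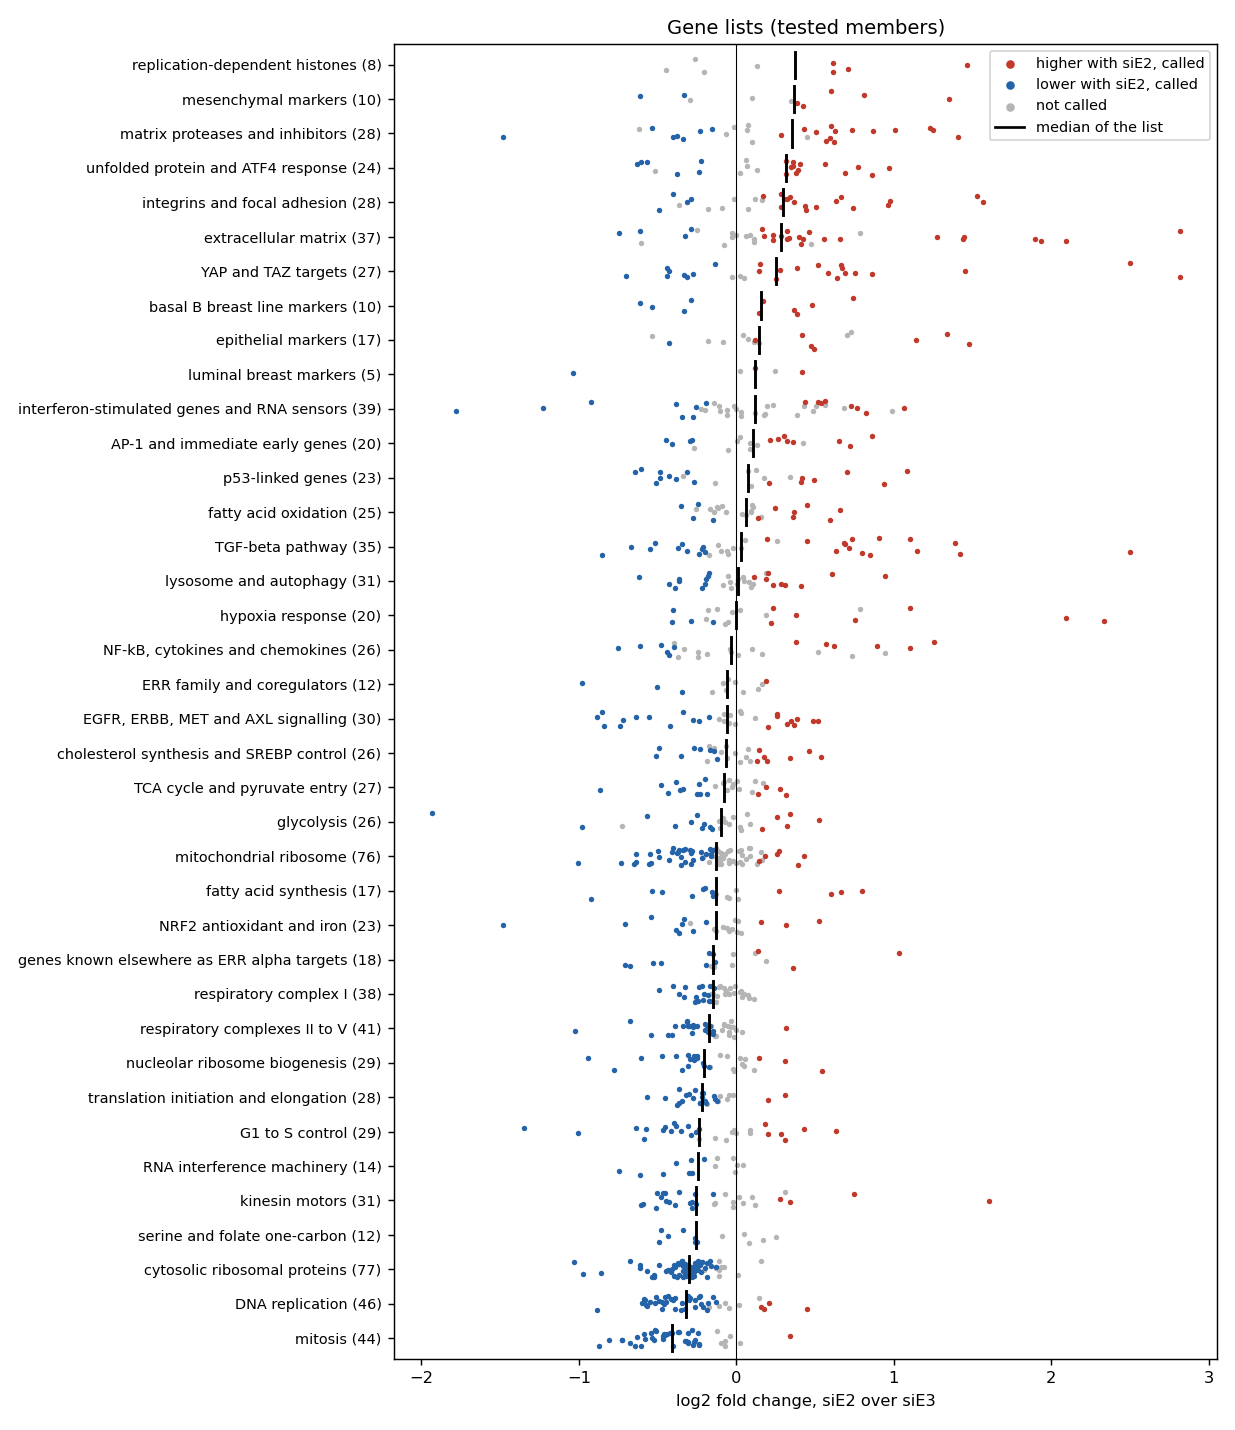
Log2 fold change of siE2 over siE3 for the tested members of the lists with at least 5 tested members, 1 dot per gene, sorted by the median of the list (black bar), with the number tested in brackets; colours mark called genes. Mitosis is at the bottom with a median of -0.41, and the histone, mesenchymal and protease lists are at the top.

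**Figure D4:**
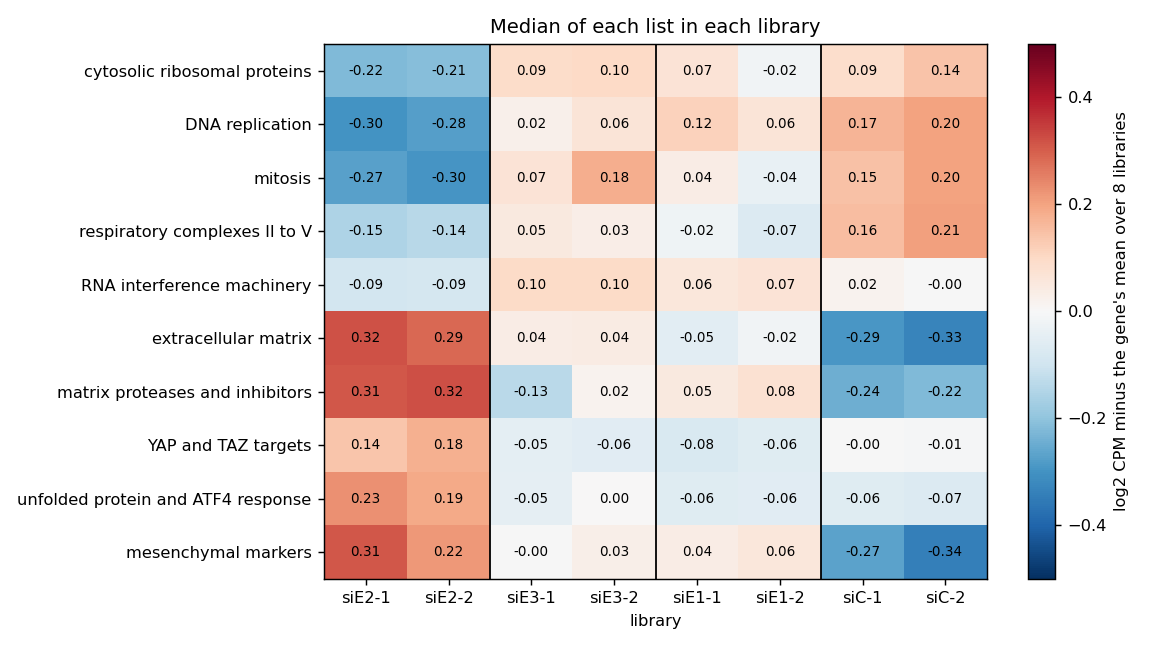
Median over the members of 10 lists, in each of the 8 libraries, of log2 CPM minus the mean of the gene over the 8 libraries. In the mitosis and DNA replication rows both siE2 libraries are the lowest of the 8, and in the protease and YAP and TAZ rows both siE2 libraries are the highest.

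Of 24 genes of the unfolded protein and ATF4 response, 13 were higher and 6 lower (median 0.32). PDIA4, a protein disulphide isomerase of the endoplasmic reticulum, had 259.9 and 259 CPM with siE2, against 155 and 149 CPM with siE3 (log2 fold change 0.77, SE 0.0435, edgeR adjusted p = 2.3e-09), and the chaperone CALR had 1339 and 1277 CPM with siE2, against 810.1 and 815 CPM with siE3 (log2 fold change 0.69, SE 0.0395, edgeR adjusted p = 2.7e-09). The siE2 libraries were the highest of the 8 for both. HSPA5, the chaperone BiP, was lower at -0.24, as were the sensor ATF6 (-0.57) and ASNS (-0.63), which makes asparagine. AP-1 and immediate early genes had 8 of 20 higher and 4 lower (median 0.11), with JUND at 0.65 and ATF3 at 0.86. In the hypoxia list 7 of 20 were higher and 4 lower, with a median of -0.0025 whose sign turned under 5 of 20 settings. Besides ADM and LOX, EPAS1, which encodes HIF-2α, had 55.5 and 52.6 CPM with siE2, against 22.9 and 27.4 CPM with siE3 (log2 fold change 1.1, SE 0.0882, edgeR adjusted p = 9.1e-08).

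Interferon-stimulated genes and RNA sensors, which respond to foreign RNA, had 8 of 39 higher and 8 lower (median 0.12). IFIT1 had 49.4 and 44.8 CPM with siE2, against 26.1 and 29.2 CPM with siE3, and 41.3 and 33.3 CPM with siE1 and 15.1 and 17.5 CPM with siC (log2 fold change 0.77, SE 0.0997, edgeR adjusted p = 1.4e-05). IFIT2 had 70.7 and 55.7 CPM with siE2, against 26.4 and 33.9 CPM with siE3 (log2 fold change 1.06, SE 0.126, edgeR adjusted p = 5.6e-06). The siE2 libraries were the highest of the 8 for both IFIT genes. EIF2AK2, which encodes the double-stranded RNA-dependent kinase PKR, was lower, with 33.7 and 36.5 CPM with siE2, against 63.7 and 69.3 CPM with siE3 (log2 fold change -0.92, SE 0.0643, edgeR adjusted p = 2.1e-08), and DTX3L stood at -1.23. OAS3, a sensor of double-stranded RNA, was lower as well, at low levels of 0.692 and 0.777 CPM with siE2, against 2.33 and 2.73 CPM with siE3 (log2 fold change -1.78, SE 0.273, edgeR adjusted p = 6.9e-05). IFNB1, the interferon β gene, had 0 counts in all libraries.

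Of 14 tested genes of the RNA interference machinery 8 were lower and 0 higher (median -0.24). EIF2C2, which encodes the slicing Argonaute AGO2, had 86.8 and 87.6 CPM with siE2, against 133 and 134 CPM with siE3 (log2 fold change -0.61, SE 0.0462, edgeR adjusted p = 4.6e-08), and TARBP2, a partner of Dicer, had 19.1 and 18.9 CPM with siE2, against 31.6 and 32.2 CPM with siE3 (log2 fold change -0.75, SE 0.0733, edgeR adjusted p = 7.7e-07). In both genes the siE2 libraries were the lowest of the 8. NF-kB and cytokine genes had 6 of 26 higher and 6 lower (median -0.04, of the other sign under 2 of 20 settings), with the receptor IL6R at 1.25 and NFKB1 at -0.48. The NRF2 and iron list had 9 of 23 lower and 3 higher (median -0.13), with GCLM of glutathione synthesis at -0.71 and the iron exporter SLC40A1 at -1.48. The p53-linked list had 9 of 23 lower and 7 higher (median 0.07), with the kinase PLK2 at 1.08 and SESN1 at -0.65. Receptor tyrosine kinase signalling genes had 12 of 30 lower and 9 higher (median -0.06), with the inhibitor SPRY4 at -0.88, the kinase MAPK3 at -0.85 and the adaptor SHC1 at 0.52.

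Short sequence words in the 3′ UTR went with the direction of the difference. The search covered 12348 of the tested genes (92.18%). The 3′ UTR of their GENCODE release 29 transcript on GRCh38, which is not the build of the authors' counts (hg19), was searched on the mRNA strand for all words of 7 bases found in at least 100 genes, 15753 in all. The value of a word is the mean log2 difference, siE2 minus siE3, of genes that hold it minus genes that do not, after a linear fit on 3′ UTR length and GC content. Words were ranked in the replicate 1 libraries, and their values are then those of the replicate 2 libraries. The lowest word was ATCTGCT, found in 1552 genes (12.6% of those searched), with -0.164 in the libraries that ranked it and -0.159 in the others, where it again ranked 1. The next was TCTGCTA, which shares 6 of its bases with the first (1208 genes, 9.78%), with -0.155 in the libraries that ranked it and -0.154 in the others. Set beside siC, which both values share, ATCTGCT stood at -0.149 for siE2 and at 0.0123 for siE3.

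Among words of at least 100 genes, the highest was TCCGCAA, in 127 genes, at 0.190 in the libraries that ranked it and 0.147 in the others. Beside siC this word stood at 0.121 for siE2 and at -0.0473 for siE3, so its value with siE2 lay further from 0. In a search of the 8515 words found in at least 1000 genes, which was added after the data had been seen, the highest was TCTCAGA, in 1992 genes (16.1%), at 0.107 and, in the libraries that did not rank it, 0.0951. Beside siC it stood at -0.0095 for siE2 and at -0.110 for siE3, so its value with siE3 was the one away from 0. The median log2 fold change was -0.10 over the genes with ATCTGCT and 0.078 over those with TCTCAGA, and it lay further from 0 in a longer form of both words. Of 306 genes with the 8 bases ATCTGCTA (2.48%), 152 (49.7%) were called lower with siE2 and 42 (13.7%) higher, with a median log2 fold change of -0.20. Of 520 genes with ATCTCAGA (4.21%), 220 (42.3%) were called higher and 82 (15.8%) lower, with a median of 0.16. Another 8-base form of TCTCAGA was also counted and differed less. Of 777 genes with TCTCAGAA (6.29%), 295 were called higher and 164 lower. Their median of 0.0936 was little above the 0.078 over all genes with TCTCAGA. Of 8770 genes with none of the 3 words (ATCTGCT and the next lowest, and TCTCAGA), 2034 (23.2%) were higher and 2181 (24.9%) lower. The calls and medians here include the libraries that ranked the words, so they add no support. In the replicate 2 libraries alone the median log2 difference was -0.21 for genes with ATCTGCTA. It was 0.15 for genes with ATCTCAGA and 0.092 for genes with TCTCAGAA. Words of 8 bases were not ranked in the replicate 1 libraries, and these medians lack the fit on length and GC content. The replicate 2 medians are therefore no separate check. Genes with a word have longer 3′ UTRs, with a median of 3418 bases for ATCTGCTA against 1135 bases for all searched genes.

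Of the 14 lowest genes 5 hold ATCTGCTA in the 3′ UTR. These 5 were chosen because they hold the word. A window of 30 bases around it is given for each, 5′ to 3′ with the word in capitals.
JKAMP: agggtaatattATCTGCTAcactggaaggc
GPD1L: cactggttcttATCTGCTAgccttttacat
DYNC1LI2: tatgtatattgATCTGCTAagaccaggatt
CDC37L1: ttctgggaggcATCTGCTAcagtctctttt
DYNLT1: taaaatctgaaATCTGCTAgtgtgaaactt
On GRCh38 these lie at chr14:59504274-59504303 (JKAMP, plus strand), chr3:32168598-32168627 (GPD1L, plus strand), chr16:66723653-66723682 (DYNC1LI2, minus strand), chr9:4706443-4706472 (CDC37L1, plus strand) and chr6:158636554-158636583 (DYNLT1, minus strand). The flanks differ from gene to gene. GPD1L also holds TCTCAGA, the word with a value in the other direction. The level with siE2 was low for all 5, and for DYNC1LI2 the level with siE1 was low too.

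TCTCAGA is shown in the same way for 3 of the 5 genes that hold it among the 14 highest.
THBS1: tggaatagataTCTCAGAttgtgtagatat
TGFB2: agacattttccTCTCAGAtaggatgacatt
GALNT2: cagatgctcagTCTCAGAgaggctggcacg
They lie in 3′ UTRs at chr15:39597138-39597167, chr1:218443600-218443629 and chr1:230281005-230281034, all on the plus strand. In THBS1, TGFB2 and GALNT2 siE3 was the lowest group, as it was in SDC2, which holds the word but is not shown. GALNT5 also holds it, together with ATCTGCT. There siE3 was not the lowest group, with a mean of 4.96 CPM against 4.88 CPM for siC. Of the 14 lowest genes 9 held ATCTGCT or TCTGCTA and 3 held TCTCAGA, and of the 14 highest 3 held ATCTGCT or TCTGCTA and 5 held TCTCAGA. Of all genes searched, 18.3% held ATCTGCT or TCTGCTA and 16.1% held TCTCAGA. The named genes come from the same fold changes that ranked the words, so their counts add no support.

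ESRRA itself held ATCTGCT once, in its coding sequence, but not the next lowest word or TCTCAGA, and none of the reverse complements of the 3 words.
ESRRA: actggtgtctcATCTGCTggtggttgagcc
The window lies at chr11:64314757-64314786 of GRCh38 on the plus strand. Over all genes only 3′ UTRs were searched, so how often coding sequences hold ATCTGCT was not counted. The guide sequences of siE2 and siE3 were not analysed here, so the words could not be set beside them, and the part of guide pairing in these differences was not tested. A match is a description of the letters in these transcripts.

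**Figure D5:**
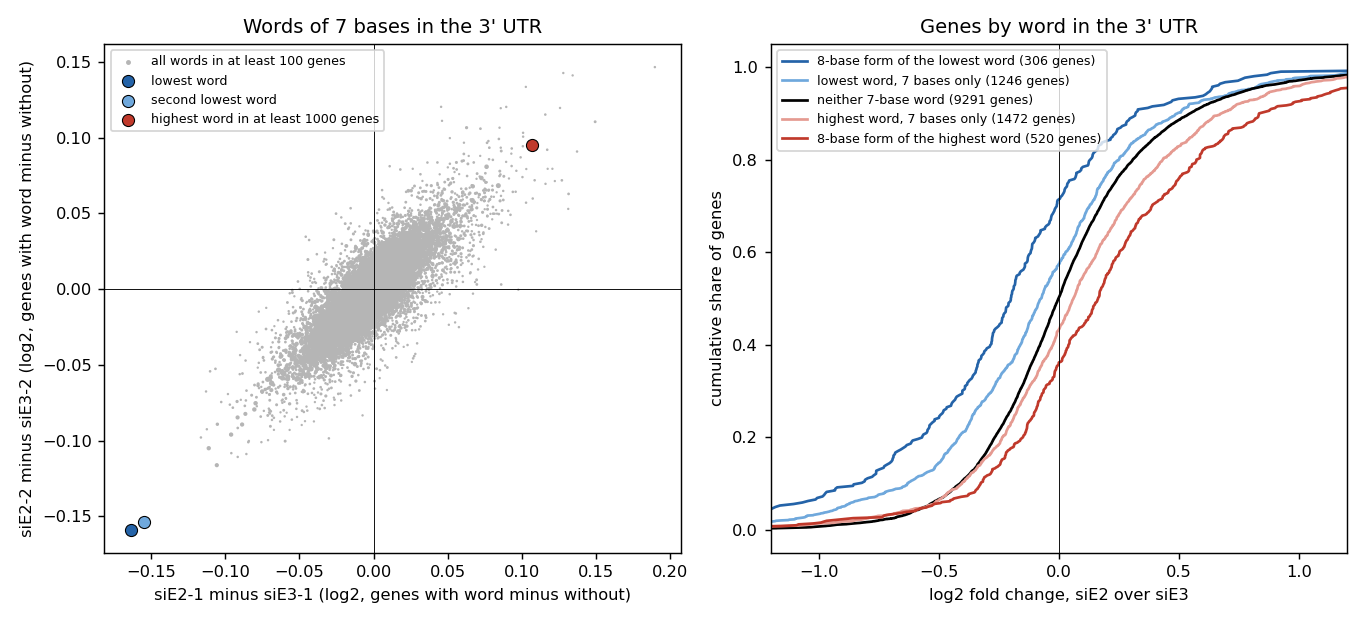
Left, value of each 7-base word in the replicate 1 libraries (horizontal) and the replicate 2 libraries (vertical), as the mean log2 difference, siE2 minus siE3, of genes with the word minus genes without; right, cumulative share of genes by log2 fold change of siE2 over siE3, grouped by the words of their 3′ UTR. The lowest word, found in 1552 genes, and the next lowest lie close together, far from the rest at the lower left. The curve of the 306 genes with the 8-base form of the lowest word lies left of all others.

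Several lists were also described without the genes that hold these words. Members that hold any of the 3 words were left out, an alternative added after the data had been seen. Of the 8770 searched genes with none of the 3 words, 23.2% were higher and 24.9% lower. Their 3′ UTRs were shorter, with a median of 776 bases against 1135 bases for all searched genes. The median log2 fold change was -0.44 for 33 mitosis genes, of which 31 were lower and 1 higher. For 37 replication genes it was -0.31, with 29 lower and 2 higher. It was -0.30 for 72 ribosomal protein genes, of which 63 were lower and 0 higher. For 37 genes of complexes II to V it was -0.18, with 23 lower and 0 higher. On the higher side the median was 0.18 for 27 matrix genes, of which 14 were higher and 3 lower. For 15 YAP and TAZ targets it was 0.39, with 10 higher and 3 lower. The matrix median was thus smaller than over all 37 members, and the YAP and TAZ median larger. For 14 hypoxia genes it was 0.23, against -0.0025 over all 20 tested. The median also turned sign for the NF-kB list (0.13 for 18 genes) and for receptor tyrosine kinase signalling (0.028 for 20 genes). The part of the words in the list differences was not tested.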

How the data were processed

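Per the labels' protocols, RNA was taken with a Qiagen RNeasy kit from MDA-MB-231 cells and sequenced as Illumina libraries. In the submitters' processing notes the tools TopHat 1.3.3, HTSeq and DESeq and the build hg19 appear without roles. Neither strand setting nor annotation nor filters are stated there, so antisense and overlapping genes cannot be told apart. The authors deposited raw counts per gene symbol (23368 symbols, 5492 with no count), and levels here are those counts scaled to CPM by TMM.

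Groups came from the sample titles. In edgeR 4.0.16 (R 4.3.3), filterByExpr kept 13395 genes. Glm quasi-likelihood fits over all 8 libraries with a mean per siRNA (4 residual degrees of freedom, biological coefficient of variation 4.08%) tested siE2 minus siE3, with Benjamini-Hochberg adjustment over all genes and 0.05 as threshold. SE is the absolute log2 fold change over the root of F. The fit was tested on simulated data. The comparison, the 41 gene lists (1152 entries) and the words were chosen with earlier results of these data known. Named genes were ESRRA, ESRRB, ESRRG, the 14 highest and 14 lowest called genes (at least 5 CPM, groups apart) and up to 4 called members per direction of a list with the smallest p; some are given without values or left out. Other named list and marker genes were chosen after their values were seen. The 3′ UTRs came from GENCODE release 29 (GRCh38), and 1047 genes were not matched. Alternatives were other scalings, filters, tools (DESeq2 1.42.0, limma 3.58.1), libraries in the fit, replicate blocks and word settings.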

Additional observations from a re-analysis of the deposited data

How the results depend on the processing

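Over 20 settings the genes called numbered 5008 to 7547, with no sign turned among genes called both ways, apart from a limit of 1.5-fold, which left 1691 (1075 higher, 616 lower). DESeq2 called 5293 and limma-voom 6444. Leaving out one library gave 5008 to 6414 calls. The 28 named genes kept direction in all 560 values tried. They were chosen for the largest called differences in these same libraries, so this was likely beforehand. ESRRA ranged over -0.22 to 0.07 without one library, and its sign turned (0.072) without siE2 replicate 2. The cause was not tested. List medians changed sign for lysosome (1 setting), TGF-β (4), NF-kB (2) and hypoxia (5), and in 16 of 38 lists they kept their sign but moved by over 1.5 times, among them interferon (0.031 to 0.16), AP-1 (0.035 to 0.29), NRF2 (-0.25 to -0.03) and kinesins (-0.27 to -0.14).

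The labels tie the replicate numbers to no shared batch or day. Replicate differences of siE2 and siE3 correlated at -0.337 across 10502 genes. Those of siE2 and siE1 (0.364) and of siE3 and siC (0.257) correlated positively, and the other pairs at -0.390 to -0.337, so whether libraries shared a batch under crossed numbers is not known. With the replicate block, 6052 genes were called in 8 libraries and 5760 in 4. With crossed numbers for siE3 and siC, an alternative added after seeing the data, 7547 and 7365 genes were called.

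The lowest word stood at -0.155 without the fit on length and GC content and at -0.164 when ranked in replicate 2, and the highest in at least 1000 genes at 0.105 and 0.107. The lead 6-base words stood at -0.0858 (CTGCTA) and 0.066 (CGAACG, in 128 genes, where the limit of 1000 genes was not applied).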
